A study of Homo sapiens with 647 samples.

Results

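SCUBE2, BCAS1 and C1orf64 are 3 of the 54592 genes counted by SMART-Seq2 RNA sequencing in 647 libraries of T47D, an established estrogen receptor positive luminal breast cancer cell line. They were chosen by their counts in these same libraries, which were low where the fibroblast growth factor receptor (FGFR) was active and high where it was blocked. The contrasts used were each line against the GFP line, with FGF2 against without it, and with FIIN-3 or trametinib against without. Their values are therefore given as a description, with no test. Fulvestrant against none, and palbociclib against the untreated control of set 2, were tested. Both of their arms stand on the same side of the choosing contrasts with FGF2, FIIN-3 or trametinib, except for fulvestrant on palbociclib, FGF2 and FIIN-3 in set 2. There the arm with fulvestrant has no group without FIIN-3 to stand against, and the other arm has. DMSO libraries, unlike those with fulvestrant, also stand in the contrasts of line against GFP. The p-values of fulvestrant against DMSO, of its difference between lines, and of that set 2 comparison are therefore not free of the choice. The arms of trametinib against FIIN-3, and of palbociclib added to fulvestrant, do not stand on the same side. Their fold changes are given with SE and no p-value for the 3 genes.

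FGFRs are receptor tyrosine kinases of the cell surface. Binding of a secreted fibroblast growth factor such as FGF2 or FGF3 pairs them and starts a kinase relay through RAS, RAF, MEK and ERK, whose output includes DUSP6, a phosphatase that acts back on ERK. SCUBE2 is a secreted and membrane-tethered protein with EGF-like repeats and a CUB domain that helps to release hedgehog ligands from the cells that make them, and its transcript is counted in the estrogen receptor group of a clinical breast cancer recurrence assay. BCAS1 (breast carcinoma amplified sequence 1) lies in a region of chromosome 20 that is amplified in breast cancers, and in the brain it marks newly forming oligodendrocytes. C1orf64, which RefSeq names SRARP (steroid receptor associated and regulated protein), binds steroid receptors in breast cancer cells.

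All lines except the parental one were made by lentiviral infection of T47D with an open reading frame in the vector pLX307. The 8 lines carried FGF3, FGFR2 with the mutation K660N, N550K or M538I, wild-type FGFR2, FGFR1, or GFP, with the uninfected parental line beside them. The labels do not say whether a line was 1 clone. Cells grew in 96-well plates for 48 h before treatment, and RNA was taken after 24 h of it. The agents were DMSO (vehicle), fulvestrant (a degrader of the estrogen receptor, 100 nM), palbociclib (an inhibitor of cyclin-dependent kinases of the cell cycle, 1 µM), FIIN-3 (a covalent inhibitor of FGFRs, 100 nM), trametinib (an inhibitor of MEK, 500 nM) and FGF2, alone or combined. The sources used here give no dose for FGF2. It was not added to the FGF3 line, which makes its own ligand, and the untreated FGF3 cells of set 2 carry the label control.

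The libraries fell into groups of line by treatment with 4 to 6 libraries each. Set 1 held 64 groups with total counts of 512961 to 13012180 (median 7570052.5), and set 2 held 48 groups with 619509 to 4804935 (median 2887186). The sets were kept apart. The labels do not say that the libraries of a group came from separate cultures, so the p-values measure only the spread between these libraries, which may be technical. In 16 libraries, 14 of them in set 1, the mitochondrial ribosomal RNA MT-RNR2 took under 5% of counts, and these libraries are called those that stand apart. Each was set against the libraries of its group that do not stand apart. C1orf64 was above all of those in 14 of the 16 (16.05 to 104.9 CPM, median 66.7, over the 16). BCAS1 was below all of those in 13, and SCUBE2 lay within their range in 10. Levels are CPM, counts scaled to library size after TMM normalisation, given as the lowest, median and highest library of a group, and differences are on the scale log2(CPM + 1) as mean ± SE.

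The overexpressed genes were high in the lines labelled for them, while gene counts do not show which FGFR2 mutation a line carries. At DMSO, FGFR1 was at 58.6, 428 and 873 CPM (lowest, median, highest) in the FGFR1 line and at 3.90, 7.05 and 9.54 in the GFP line. FGFR2 was at 422.3 to 767.5 CPM in K660N, and at 43.6 to 449.9 over the N550K, M538I and wild-type lines, against 9.59 to 21.3 in GFP. FGF3 had a median of 147.6 CPM in its own line, against 0 in GFP. DUSP6 medians at DMSO were 37.9 (FGF3), 26.2 (K660N), 49.6 (N550K), 14 (M538I), 5.12 (wild type) and 4.26 (FGFR1), against 2.39 in GFP and 1.94 in the parental line. All 7 of the luminal epithelial markers (EPCAM, KRT8, KRT18, KRT19, ESR1, GATA3, FOXA1) had medians over 1 CPM across the 45 DMSO libraries, with a sum of 14000 to 58200 CPM.

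The promoters of SCUBE2 and C1orf64 are shown so that the upstream sequences of genes chosen for one pattern can be set side by side. Both are the 250 bases before the start site from RefSeq on GRCh38.p14, which matched 2 of the 3 genes, and BCAS1 is named only. The SCUBE2 sequence is chr11:9091600-9091849, minus strand, with the GC box GGGCGG in capitals on either strand. The C1orf64 sequence is chr1:16003986-16004235, plus strand, with the single arm of an estrogen response element GGTCA and the TATA box TATAAA in capitals.
SCUBE2: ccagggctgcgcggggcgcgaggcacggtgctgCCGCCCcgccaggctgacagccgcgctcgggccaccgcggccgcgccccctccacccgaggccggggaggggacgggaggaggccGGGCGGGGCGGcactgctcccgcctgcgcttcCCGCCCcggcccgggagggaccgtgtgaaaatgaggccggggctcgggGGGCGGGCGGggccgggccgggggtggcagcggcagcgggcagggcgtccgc
C1orf64: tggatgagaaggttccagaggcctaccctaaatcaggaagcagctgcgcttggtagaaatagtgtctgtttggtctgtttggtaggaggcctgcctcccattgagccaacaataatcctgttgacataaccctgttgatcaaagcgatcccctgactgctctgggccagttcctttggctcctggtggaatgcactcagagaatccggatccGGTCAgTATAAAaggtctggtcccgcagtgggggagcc
SCUBE2 was 83.6% G and C, against 52.8% in C1orf64 and a median of 58% over 35116 RefSeq promoters. It held 6 GC boxes, 4 of them in 2 overlapping pairs, a motif found in 42.6% of promoters, and C1orf64 held none. C1orf64 held GGTCA, present in 32.6% of promoters, with its first base at position −38 from the start, and TATAAA, present in 10.7%, at −32, and SCUBE2 held neither. The full estrogen response element, GGTCA and TGACC 3 bases apart (0.0399% of promoters), the AP-1 site TGANTCA (6.57%), the forkhead site TGTTTNC (15.5%) and the steroid receptor site, GNACA and TGTNC 3 bases apart (0.327%), were searched on both strands and were not in these 2 windows. In GENCODE v29 each of the 3 genes is overlapped by an antisense gene (AC079296.1 at SCUBE2, AC005220.1 at BCAS1, AL355994.3 at SRARP). SMART-Seq2 does not mark strand, so reads of a gene and of its antisense partner cannot be told apart.

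SCUBE2 was the gene whose level differed most between lines before any treatment. In the FGF3 line it was at 2.74, 2.75, 3.76, 4.83 and 7.58 CPM in the 5 DMSO libraries. It was at 2.38, 8.04 and 14 CPM in K660N, at 0.994, 2.73 and 7.35 in N550K, and at 10.8, 13.4, 14.1, 20.6 and 25.3 in the 5 M538I libraries. These lines lay low, and the first 3 did not overlap the GFP line. In wild-type FGFR2 it was at 18.6, 28.7 and 35.7 CPM and in the 5 FGFR1 libraries at 29.2, 30.2, 33.6, 34.2 and 36.8, against 21.8, 29.4 and 38.4 in GFP and 21, 23.5 and 28.9 in the parental line. The wild-type FGFR2 and FGFR1 groups overlapped the GFP line. On the log2 scale the difference from GFP was −2.61 ± 0.25 in FGF3, −1.91 ± 0.31 in K660N, −3.01 ± 0.30 in N550K, −0.85 in M538I, −0.12 in wild-type FGFR2 and 0.12 in FGFR1. In these bulk libraries, fewer cells that express a gene and less RNA of it per cell cannot be told apart.

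BCAS1 differed less between lines. Its DMSO levels were 24.2, 29.1 and 42.7 CPM in FGF3, 22.8, 27.8 and 40.03 in K660N, 17.1, 27.6 and 29.8 in N550K, 17.1, 23.1 and 35.4 in M538I, 26.2, 26.9 and 37.5 in wild-type FGFR2 and 33.1, 38.9 and 46 in FGFR1. They were 31.2, 46.4 and 50.1 in GFP and 39, 49 and 70.8 in the parental line. With all libraries, N550K alone lay wholly below GFP (−0.80 ± 0.16). Without the libraries that stand apart, of which GFP replicate 6 at 31.2 CPM is one, FGF3, K660N, N550K, M538I and wild-type FGFR2 lay wholly below GFP (44.6 to 50.1 CPM). C1orf64 went against the name of FGFR-repressed gene at DMSO in the FGF3 line. It was at 34.3, 38.4 and 49.9 CPM there, against 14.1, 21.6 and 59.6 in GFP. In K660N C1orf64 was at 10.3, 17.1 and 21 CPM and in N550K at 18.2, 20.7 and 104.9, with both medians below that of GFP. With all libraries no line lay wholly above or below GFP for C1orf64, and the FGF3 mean was 0.79 higher. With those that stand apart left out, the FGF3 line lay wholly above GFP (14.1 to 23.8 CPM) and its mean was 1.06 higher. Over the 7 lines, 3 SCUBE2, 1 BCAS1 and 0 C1orf64 comparisons with GFP were lower without overlap, and 3, 5 and 0 without the libraries that stand apart. Over all pairs of gene and line 1.4% were (3.6% without those libraries), and since these contrasts chose the genes, nothing is read from that share.

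The mean of all 3 genes was lower with FGF2 than with DMSO in all 7 lines that had it. In the FGFR1 line SCUBE2 was at 4.11, 7.42 and 10.7 CPM with FGF2, against 29.2, 33.6 and 36.8 with DMSO, a difference of −2.06 ± 0.21. In wild-type FGFR2 it was at 4.25, 6.74 and 10.4 with FGF2, against 18.6, 28.7 and 35.7 with DMSO (−1.85 ± 0.21), and in M538I the difference was −1.76 ± 0.37. No library with FGF2 reached a DMSO library in these lines, nor in GFP (−0.87 ± 0.19) and parental (−0.79 ± 0.10), which carry only the receptors of T47D itself. In N550K and K660N, which started low, FGF2 left SCUBE2 at 0.724, 2.22 and 3.0 and at 2.03, 5.19 and 7.01 CPM, and both overlapped their DMSO libraries.

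BCAS1 with FGF2 was at 6.50, 9.06 and 13.5 CPM in FGFR1, against 33.1, 38.9 and 46 with DMSO (−1.996 ± 0.18), and at 5.56, 9.57 and 11 in wild-type FGFR2, against 26.2, 26.9 and 37.5. C1orf64 with FGF2 was at 6.01, 9.89 and 13.9 CPM in FGFR1, against 15.4, 26.7 and 72.5 with DMSO (−1.56; −1.25 with the libraries that stand apart left out). FGFR1 was the 1 line of 7 in which C1orf64 did not overlap. For SCUBE2 and BCAS1 it was 5 of 7 lines each, beside 2.28% of all pairs of gene and line, and for BCAS1 7 of 7 without the libraries that stand apart (beside 3.77%), shares from which nothing is read. The median difference over lines was −0.87 for SCUBE2, −1.02 for BCAS1 and −1.14 for C1orf64. The C1orf64 median is the value of N550K, where 2 DMSO libraries stand apart. C1orf64 in N550K at DMSO reached 104.9 CPM with them and was at 18.2 to 22 without them, against 9.54 to 19.2 with FGF2. On fulvestrant, FGF2 against none gave 3, 6 and 5 lines of 7 without overlap for SCUBE2, BCAS1 and C1orf64, beside 2.2% of all pairs, and 7 for BCAS1 without the libraries that stand apart (beside 2.75%), with median differences of −1.11, −1.13 and −0.82.

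With FIIN-3 and FGF2 together, BCAS1 stood at 46.7 to 102.6 CPM over the 7 lines, with no overlap with FGF2 alone in any of them. Its medians were 80.7 in K660N, 62.2 in N550K, 66.3 in M538I, 50.9 in wild-type FGFR2, 54.7 in FGFR1, 69.99 in GFP and 71.8 in parental. All 7 lie above the DMSO median of the same line. C1orf64 was higher without overlap in 7 of 7 lines and SCUBE2 in 6 of 7, the exception being GFP. Over all pairs of gene and line 5.26% were, and nothing is read from that share. Median differences over lines were 1.86 for SCUBE2, 2.37 for BCAS1 and 1.69 for C1orf64. On fulvestrant the same addition of FIIN-3 to FGF2 gave 6, 7 and 7 lines, beside 5.12% of all pairs, with medians of 1.61, 2.44 and 1.89.

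FIIN-3 without FGF2 was given at set 1 to N550K and FGF3 only. BCAS1 was at 89.5, 99.8 and 124.5 CPM with FIIN-3 in N550K, against 17.1, 27.6 and 29.8 with DMSO, and at 58.9, 73.3 and 83.3 in FGF3, against 24.2, 29.1 and 42.7. Both pairs of groups were apart. SCUBE2 was at 4.90, 7.63 and 10.4 CPM with FIIN-3 in N550K and at 5.44, 8.71 and 11.8 in FGF3, and its groups overlapped DMSO in both lines, as did those of C1orf64 (49.9, 54.7 and 89.9 in N550K; 46.2, 63.2 and 100.96 in FGF3). That is 2 of 6 pairs without overlap, beside 5.36% of all pairs, and nothing is read from it. Without the libraries that stand apart, C1orf64 in N550K was at 49.9 to 89.9 CPM with FIIN-3, wholly above the 18.2 to 22 CPM with DMSO, which makes 3 of 6 pairs (beside 6.41%). On fulvestrant FIIN-3 gave 3 of 6 pairs, BCAS1 in both lines and C1orf64 in FGF3, beside 6.86%, and 4 of 6 without the libraries that stand apart (beside 9.58%), with C1orf64 in N550K added. Nothing is read from those shares either. SCUBE2 in the FGF3 line and in N550K therefore stayed below every GFP DMSO library (lowest 21.8 CPM) after 24 h of FIIN-3, while BCAS1 passed the highest one.

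**Figure D1:**
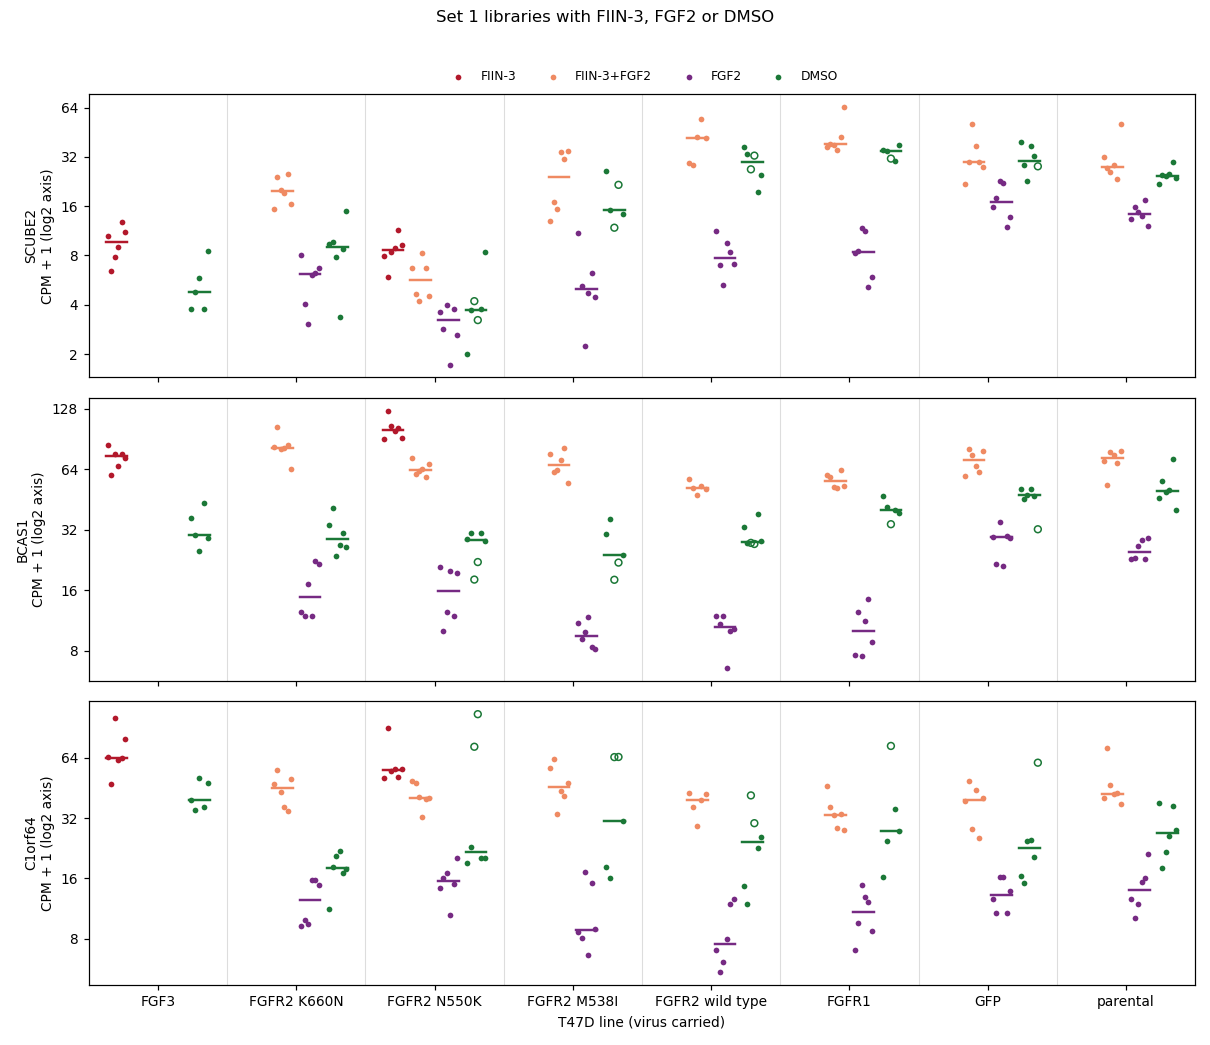
SCUBE2, BCAS1 and C1orf64 in set 1 libraries with FIIN-3, FIIN-3 and FGF2, FGF2 or DMSO. Each dot is a library, bars are medians, open circles are libraries that stand apart, and the vertical axis is CPM + 1 on a log2 scale. FGF2 medians lie below DMSO medians in every line that had FGF2, and FIIN-3 medians of BCAS1 lie above them, at 50.9 CPM or more.

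The N550K line had less SCUBE2 with FIIN-3 and FGF2 than the other FGFR2 lines. It was also the lowest of these lines with DMSO and with FGF2, at medians of 2.73 and 2.22 CPM. Its libraries with FIIN-3 and FGF2 lay above those with FGF2 alone. With FIIN-3 and FGF2, SCUBE2 was at 3.19, 4.67 and 7.29 CPM in N550K, at 14.3, 18.7 and 24.2 in K660N, at 11.9, 23 and 33.7 in M538I and at 27.6, 28.5, 40.7, 41.2 and 53.4 in the 5 wild-type libraries. N550K lay wholly below the other 3 lines. No share of all genes was counted for this, so nothing is read from it. In the same libraries BCAS1 and C1orf64 of N550K were at medians of 62.2 and 39.6 CPM. Medians of the other 3 lines were 50.9 to 80.7 CPM for BCAS1 and 38.3 to 44.9 CPM for C1orf64. With FIIN-3 and FGF2 DUSP6 was at 35.4, 44.9 and 53.1 CPM in N550K, against medians of 1.57 to 4.51 in the other lines, and with FIIN-3 alone N550K was at 1.04, 1.92 and 3.44, where SCUBE2 had a median of 7.63 CPM. The part of DUSP6 in the SCUBE2 level was not tested.

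Trametinib, which blocks the relay at MEK, separated the 3 genes from each other. On fulvestrant and FGF2, adding trametinib left BCAS1 higher without overlap in 7 of 7 lines, SCUBE2 in 1 of 7 (N550K) and C1orf64 in 0 of 7, beside 2.47% of all pairs of gene and line, from which nothing is read. BCAS1 in the FGFR1 line was at 31.6, 46.9 and 53.8 CPM with trametinib, against 9.55, 13.7 and 14.2 without (1.74 ± 0.14). In N550K it was at 37.4, 49.2 and 67.8, against 12.5, 15 and 22. C1orf64 in N550K was at 3.70, 7.01 and 9.40 CPM with trametinib, against 5.54, 11.9 and 16.7 without (−0.67 ± 0.29), and its mean was lower in all 7 lines, with a median difference of −0.40. SCUBE2 in N550K was at 2.05, 4.51 and 12.1 CPM with trametinib, against 0.793, 1.25 and 1.93 without (1.38 ± 0.33). The median SCUBE2 difference over lines was 0.43 and that of BCAS1 1.59. In the FGF3 line without FGF2, trametinib on fulvestrant gave 1 of 3 genes without overlap, BCAS1 (0.96), beside 3.97% of genes, and nothing is read from that share.

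Trametinib and FIIN-3 were then set side by side, on fulvestrant and FGF2, as log2 fold changes of edgeR's quasi-likelihood fit. Libraries of both arms stand in the contrasts that chose the genes, so the values of the 3 genes are a description. C1orf64 had negative fold changes in all 5 line classes, BCAS1 likewise by less, and SCUBE2 in all but N550K. C1orf64 in N550K was at 3.70, 7.01 and 9.40 CPM with trametinib, against 28.1, 56.5 and 76.7 with FIIN-3, and the libraries did not overlap. The log2 fold change was −3.02 ± 0.24 (n = 6 each), the lowest of the 5 line classes. In the wild-type, M538I and K660N lines together it was −2.59 ± 0.14 (n = 18 each), in FGFR1 −1.99 ± 0.16 (n = 6 each), and in the GFP and parental lines −1.77 ± 0.13 (n = 12 and 11). In FGF3 on fulvestrant alone C1orf64 was at 24.9, 31.7 and 40.2 CPM with trametinib, against 64.6, 75.7 and 81.3 with FIIN-3, again without overlap (−1.25 ± 0.15, n = 6 each). No share of all genes without overlap was counted for trametinib against FIIN-3 in set 1, so nothing is read from the overlaps.

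For SCUBE2 the wild-type FGFR2 line had 11.3, 12.5 and 13.8 CPM with trametinib, against 25.6, 34.2 and 44.7 with FIIN-3, and FGFR1 had 9.69, 14.6 and 19.5, against 31, 37.4 and 45.1. Both pairs were apart, from which again nothing is read. The fold change was −1.31 ± 0.13 in the wild-type, M538I and K660N lines, −1.44 ± 0.17 in FGFR1, −0.85 ± 0.11 in GFP and parental and −0.14 ± 0.37 in FGF3. In N550K SCUBE2 was at 2.05, 4.51 and 12.1 CPM with trametinib, against 1.87, 3.25 and 5.06 with FIIN-3, overlapping groups with a fold change of 0.71 ± 0.38. The trametinib minus FIIN-3 difference in N550K less that in the wild-type, M538I and K660N lines was 2.03 ± 0.34 for SCUBE2, 0.55 ± 0.19 for BCAS1 and −0.42 ± 0.27 for C1orf64, and the split of N550K from the other lines was itself made with results of these libraries known.

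With trametinib DUSP6 was at 2.08, 2.58 and 6.36 CPM in N550K, against 35.6, 42.7 and 54.9 with FIIN-3 (−3.80 ± 0.25, adjusted p = 2.5e-10), and its part in the SCUBE2 difference was not tested. Among 7 tested genes of MAPK output, 5 were called lower with trametinib in N550K, beside 5.81% of all genes, with PHLDA1 (−2.50) and DUSP4 (−1.85) after DUSP6, and 0 were higher. The list median was −1.10 beside 0.00 over all genes tested.

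BCAS1 had log2 fold changes of −0.51 to −1.06 with trametinib against FIIN-3 in the 5 classes. In GFP it was at 47.6, 64.2 and 78.3 CPM with trametinib, against 71.8, 76.4, 80.7, 96.6 and 99.3 in the 5 libraries with FIIN-3, with some overlap. The fold change was −0.57 ± 0.08 in GFP and parental, −0.77 ± 0.14 in FGFR1, −1.06 ± 0.10 in the wild-type, M538I and K660N lines, −0.51 ± 0.17 in N550K and −0.57 ± 0.12 in FGF3. In GFP and parental 21.1% of all genes were called lower with trametinib and 21.3% higher. Among those called lower were other estrogen group genes of the recurrence assay, by edgeR's quasi-likelihood test with Benjamini-Hochberg adjustment over all genes at a threshold of 0.05, with −0.53 ± 0.08 for ESR1 (adjusted p = 1.4e-06) and −0.37 ± 0.13 for PGR (adjusted p = 0.0182). Of the hedgehog list 2 of 8 tested genes were called lower, HHAT, which attaches palmitate to hedgehog ligands (−1.30 ± 0.17), and SUFU, a repressor of GLI factors (−0.58 ± 0.16). Of 5 tested BCAS genes and BCAS1 neighbours, 1 was called lower (BCAS3, −0.67 ± 0.11) and 1 higher (BCAS4, 0.26 ± 0.08). In the estrogen group all 3 tested genes were lower, among them SCUBE2, which was chosen by these libraries. The counts are small, and the hedgehog and BCAS shares called lower are near that of all genes. They are therefore not results about the lists.

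**Figure D2:**
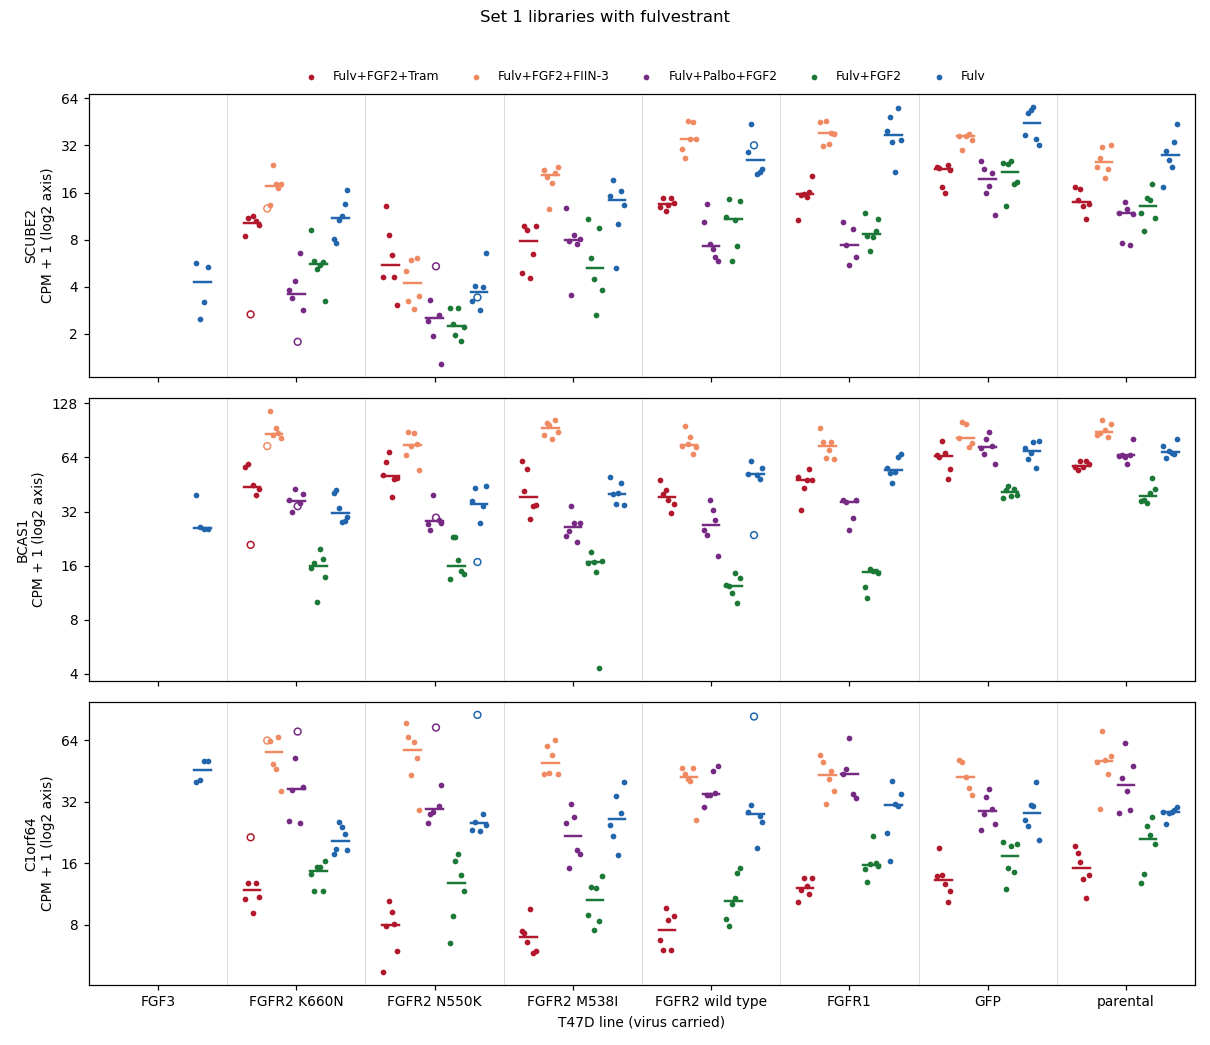
SCUBE2, BCAS1 and C1orf64 in set 1 libraries on fulvestrant, with FGF2 and trametinib, FIIN-3 or palbociclib added. Each dot is a library, bars are medians, open circles are libraries that stand apart, and the vertical axis is CPM + 1 on a log2 scale. C1orf64 is high with FIIN-3 and with palbociclib and low with trametinib, at medians of 5.93 to 14.1 CPM in the lines given FGF2.

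With palbociclib added to fulvestrant and FGF2, BCAS1 and C1orf64 had positive fold changes in each of 3 line classes and SCUBE2 small negative ones. The arm without palbociclib stands as the low arm in contrasts that chose the genes, so these values are a description. C1orf64 in the 5 FGFR1 libraries with palbociclib was at 32.3, 34, 42.6, 45.3 and 64.9 CPM, against 11.9, 14.7 and 20.8 (lowest, median, highest) without it. In wild-type FGFR2 it was at 29.3, 34 and 47.1 CPM with palbociclib, against 6.87, 9.42 and 14.2 without. Neither pair overlapped, and FGF2 was present in both arms. No share of all genes without overlap was counted for palbociclib, so nothing is read from this. The C1orf64 fold change was 1.57 ± 0.14 over the 4 FGFR2 lines (n = 24 each), 1.49 ± 0.19 in FGFR1 (n = 5 and 6) and 0.92 ± 0.15 in GFP and parental (n = 12 each).

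BCAS1 in FGFR1 was at 24.4, 28.3, 35.3, 35.9 and 36 CPM with palbociclib, against 9.55, 13.7 and 14.2 without, and in GFP at 58, 71.9 and 88, against 36.9, 39.99 and 43.6. Its fold changes were 1.03 ± 0.11 over the 4 FGFR2 lines, 1.28 ± 0.16 in FGFR1 and 0.77 ± 0.08 in GFP and parental. SCUBE2 in FGFR1 stayed low at 4.50, 5.20, 6.37, 8.31 and 9.32 CPM with palbociclib, against 5.79, 7.74 and 10.9 without. Its fold changes were −0.11 ± 0.21 over the FGFR2 lines, −0.32 ± 0.24 in FGFR1 and −0.25 ± 0.16 in GFP and parental.

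The FGF3 line had palbociclib 2 more times, in separate libraries. On fulvestrant, again as a description, C1orf64 was at 57.6, 89.6 and 109.04 CPM with palbociclib, against 38.9, 39.7, 49.4 and 49.7 in the 4 libraries without (0.97 ± 0.18). BCAS1 was at 40.6, 50.1 and 60.9 with palbociclib, against 24.6, 24.6, 25.1 and 38.6 without (0.85 ± 0.19). Both genes had no overlap, for which no share over all genes was counted, so nothing is read from it. C1orf64 reached its highest group mean of set 1 here. In set 2, palbociclib alone against the untreated control was tested by edgeR and raised both genes. It put C1orf64 at 40.8, 50.8 and 61.1 CPM, against 14.9, 19.6 and 28.6 (1.30 ± 0.19, adjusted p = 0.00014), and BCAS1 at 34.9, 49.9 and 73.6, against 21.5, 28.2 and 35.8 (0.86 ± 0.20, adjusted p = 0.0127). SCUBE2 did not pass that test (0.12 ± 0.46, adjusted p = 0.92), and was at 0.15 ± 0.49 on fulvestrant. Genes called higher against the control were 1.73% of those tested.

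Of the luminal identity list, 7 of 15 tested genes were called higher with palbociclib in GFP and parental, 5 in FGFR1 and 8 in the FGFR2 lines, beside 10.8%, 4.37% and 18.4% of all genes, and 0 lower in these classes. Its median was 0.20, 0.35 and 0.29 in these classes, beside 0.03, 0.02 and 0.05 over all genes tested. KRT19, a luminal keratin, had 0.54 ± 0.13, 0.77 ± 0.14 and 0.68 ± 0.10 in these classes. In the FGF3 line 0 of 15 luminal genes were called higher on fulvestrant, beside 1.47% of all genes, and 1 of 15 against the control, with medians of 0.31 and 0.44. The MAPK output list had 3 genes called higher in each of GFP and parental, FGFR1 and the FGFR2 lines, of 9, 14 and 14 tested, and 3 called lower in the FGFR2 lines, where 16.6% of all genes were lower and FOSL1 had −0.83 ± 0.24. Its DUSP6 was higher by 0.68 ± 0.11 in GFP and parental, 1.15 ± 0.11 in FGFR1 and 0.91 ± 0.08 in the FGFR2 lines.

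Set 2 carried the FGF2 and FIIN-3 contrasts on a palbociclib background, again as a description. SCUBE2 in FGFR1 was at 4.44, 14.1 and 17.3 CPM with palbociclib and FGF2, against 44.6, 74.2 and 113.5 with palbociclib alone, and BCAS1 was at 17.8, 28.5 and 35.5, against 67.6, 72.3 and 85.7. Both were apart. C1orf64 in FGFR1 was at 19, 25.1 and 33 CPM with palbociclib and FGF2, against 16.8, 20.4 and 26.2 with palbociclib alone, and in wild-type FGFR2 at 14.1, 18.6 and 24.9, against 8.25, 13.3 and 22.9. The C1orf64 groups of these lines overlapped, with the higher median in the FGF2 arm. Over the 7 lines, FGF2 on palbociclib was lower without overlap in 3 lines for SCUBE2, 5 for BCAS1 (6 without the libraries that stand apart) and 0 for C1orf64, beside 2.98% of all pairs (3.12% without those libraries), and nothing is read from that share. Means were lower in 6, 7 and 3 of 7 lines, with median differences of −0.70, −0.93 and 0.04. The 3 lines with a lower C1orf64 mean were M538I (−0.73 ± 0.34), N550K (−0.60 ± 0.15) and parental (−0.62 ± 0.52). How the C1orf64 values differ between the sets was not tested.

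FIIN-3 added to palbociclib and FGF2 was higher without overlap in 6 of 7 lines for SCUBE2, 7 for BCAS1 and 3 for C1orf64, beside 5.17% of all pairs, and nothing is read from it. Median differences were 1.77, 1.65 and 0.70. SCUBE2 medians with all 3 agents were 24.3 CPM in K660N, 10.4 in N550K, 57.2 in M538I, 68.2 in wild-type FGFR2, 72.4 in FGFR1, 71.7 in GFP and 55.7 in parental. N550K was the lowest, as in set 1. In the FGF3 line of set 2, FIIN-3 against control gave 2 of 3 genes without overlap, BCAS1 (1.46) and C1orf64 (0.84), beside 3.96% of genes. FIIN-3 on palbociclib gave 1 of 3, BCAS1 at 95.4, 98.9, 104.2, 107.05 and 108.4 CPM in the 5 libraries, against 34.9, 49.9 and 73.6, beside 3.16%. Nothing is read from either share.

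Trametinib against FIIN-3 on fulvestrant, palbociclib and FGF2 in set 2 came from other libraries than those of set 1 and is given as values. C1orf64 in N550K was at 5.69, 6.68 and 8.84 CPM with trametinib, against 45.5, 60.8 and 69.8 with FIIN-3, and it was lower without overlap in 7 of 7 lines (median difference −1.33). SCUBE2 was lower without overlap in 4 of 7 lines (median −1.60) and BCAS1 in 3 of 7 (median −0.63), beside 6.1% of all pairs. In N550K SCUBE2 was at 4.69, 5.90 and 11.6 CPM with trametinib, against 1.64, 5.32 and 10.3 with FIIN-3 (0.32 ± 0.35), and it was the 1 line of 7 where its mean was not lower. DUSP6 in those N550K libraries was at 2.34, 4.35 and 7.82 with trametinib, against 77.2, 82.8 and 93.4 with FIIN-3. In FGF3 without FGF2, trametinib against FIIN-3 gave 1 of 3 genes lower without overlap, C1orf64 (−1.14 ± 0.16), beside 4.26% of genes.

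**Figure D3:**
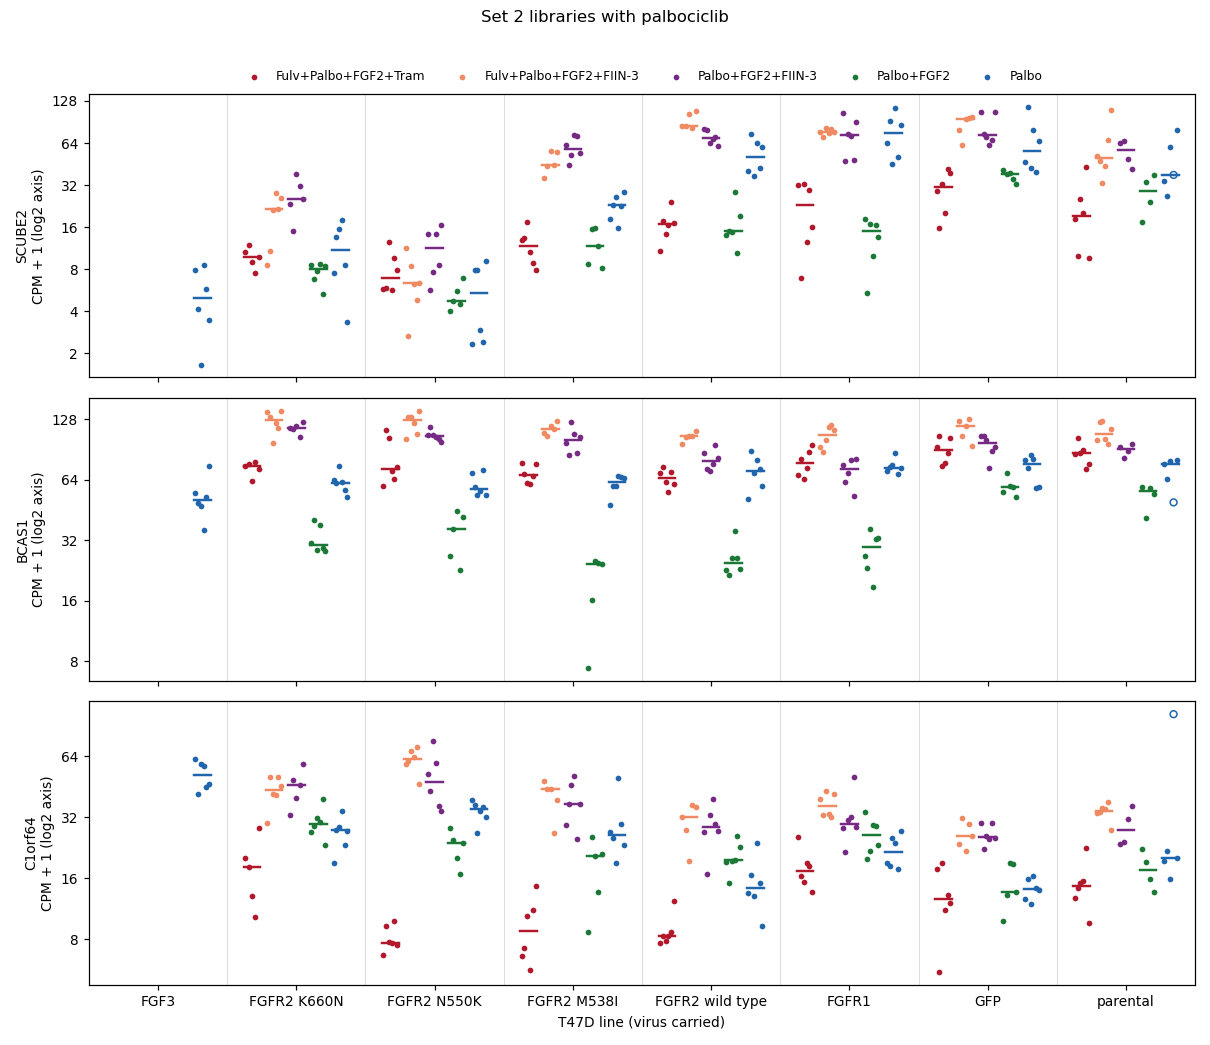
SCUBE2, BCAS1 and C1orf64 in set 2 libraries on palbociclib, with FGF2, FIIN-3, fulvestrant and trametinib added. Each dot is a library, bars are medians, open circles are libraries that stand apart, and the vertical axis is CPM + 1 on a log2 scale. With trametinib C1orf64 medians are 6.68 to 17.1 CPM in the 7 lines given FGF2, below the 24.9 to 60.8 with FIIN-3 in the matching arm.

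FIIN-3 alone was the 1 treatment given in both sets. In N550K the set 1 and set 2 medians were 7.63 and 10.5 CPM for SCUBE2, 99.8 and 105.3 for BCAS1 and 54.7 and 32.7 for C1orf64. In FGF3 they were 8.71 and 4.81, 73.3 and 84.3, and 63.2 and 35. C1orf64 had the lower median in set 2 in both lines, and the part of the lower depth of set 2 in this was not tested.

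Fulvestrant against DMSO sets the estrogen receptor, rather than FGFR, off against on. With fulvestrant against DMSO, BCAS1 was higher and neither SCUBE2 nor C1orf64 passed the test in the GFP and parental lines. BCAS1 was at 54.7, 68.9 and 78.1 CPM with fulvestrant in GFP, against 31.2, 46.4 and 50.1 with DMSO, and at 62.2, 67.6 and 79.9 in parental, against 39, 49 and 70.8. The GFP groups did not overlap and the parental ones did, and with no share over all genes counted, nothing is read from that. By edgeR's quasi-likelihood test, the BCAS1 fold change was 0.53 ± 0.11 (adjusted p = 0.00599, n = 12 each), that of SCUBE2 0.38 ± 0.15 (adjusted p = 0.226) and that of C1orf64 0.05 ± 0.18 (adjusted p = 0.929). Genes called higher were 0.565% of those tested. On the deposited log2(TPM + 1) values with limma, BCAS1 was at 0.54 with adjusted p = 0.151 and lost its call.

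Estrogen receptor targets were lower in the same libraries. Of 24 tested, 10 were called lower and 0 higher in GFP and parental, beside 0.952% of all genes lower, with a median log2 fold change of −0.91 beside 0.02 over all genes tested, led by the chemokine CXCL12 (−3.43 ± 0.17), OLFM1 (−3.04 ± 0.21) and the potassium channel KCNK5 (−2.31 ± 0.48). ESR1 (−0.49 ± 0.13, adjusted p = 0.0496) and PGR (−0.64 ± 0.16, adjusted p = 0.0265), which share the recurrence assay group with SCUBE2, were also lower, and SCUBE2 was not. In the 4 FGFR2 lines BCAS1 was higher by 0.46 ± 0.11 (adjusted p = 0.00758, n = 24 and 23), beside 1.01% of genes, and 13 of 24 targets were lower, beside 1.7%. SCUBE2 was at −0.04 ± 0.17 (adjusted p = 0.908) and C1orf64 at 0.01 ± 0.21 (adjusted p = 0.982) there. C1orf64 was called higher (0.35, adjusted p = 0.0402) when the libraries that stand apart were left out. That left 22 fulvestrant and 17 DMSO libraries, so more of DMSO were lost, and BCAS1 kept its call. With a replicate block 15.4% of genes were called in either direction, against 2.72% without it, and BCAS1 was again the 1 of 3 called.

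In the FGFR1 line BCAS1 had 0.52 ± 0.18 (adjusted p = 0.617), SCUBE2 0.24 ± 0.23 and C1orf64 −0.23 ± 0.34, with 0 of 3 called, beside 0.0791% of genes in either direction. With the replicate block 0.467% of genes and 0 of 3 were called. In the FGF3 line the fold changes were −0.52 ± 0.49 for SCUBE2, −0.22 ± 0.23 for BCAS1 and 0.09 ± 0.19 for C1orf64 (each adjusted p = 0.995), with 4 and 5 libraries. No gene at all was called there by edgeR (0%), with 410 genes at an unadjusted p under 0.05, 3 calls by DESeq2 and 0 by limma. The fulvestrant effect in the FGFR2 lines minus that in GFP and parental was −0.40 ± 0.26 for SCUBE2, −0.04 ± 0.17 for BCAS1 and −0.02 ± 0.32 for C1orf64, with 0 of 3 called (each adjusted p = 0.9999), beside 0.00679% of genes.

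With FGF2 in both arms, fulvestrant raised BCAS1 in GFP and parental by 0.63 ± 0.09 (adjusted p = 5.4e-05). BCAS1 was at 36.9, 39.99 and 43.6 CPM with fulvestrant and FGF2 in GFP, against 20.2, 28.3 and 34.1 with FGF2, and at 34.8, 37.8 and 47.9 in parental, against 21.8, 23.8 and 28.1. Neither pair overlapped, for which no share over all genes was counted, so nothing is read from it. By the test 0.823% of genes were called higher. C1orf64 had 0.42 ± 0.14 (adjusted p = 0.162; 0.43 and adjusted p = 0.0316 with a replicate block) and SCUBE2 0.06 (adjusted p = 0.939). In FGFR1 and in the FGFR2 lines 0 of 3 genes were called, beside 0.0408% and 0.447% of genes, with BCAS1 at 0.42 ± 0.19 (adjusted p = 0.56) and 0.26 ± 0.12 (adjusted p = 0.663). With the replicate block these shares were 1.74% and 1.07%, and still 0 of 3 were called.

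On palbociclib, FGF2 and FIIN-3 in set 2, BCAS1 was again higher with fulvestrant, by p-values that are not free of the choice of genes. In GFP it was at 92.9, 104.3, 116.8, 124.8 and 126.9 CPM with fulvestrant in 5 libraries, against 71.8, 96 and 105.02 without, with overlap. The fold change was 0.28 ± 0.08 in GFP and parental (adjusted p = 0.0262), beside 1.49% of genes, and 0.22 ± 0.05 in the FGFR2 lines (adjusted p = 0.00232), beside 2.34%. The first call was lost (adjusted p up to 0.0679) without GFP fulvestrant-arm replicate 1 or 4 or without parental replicate 2 or 3 of the other arm. In FGFR1 it was 0.59 ± 0.14 (adjusted p = 0.074), and 0 of 3 genes were called, beside 0.607% of genes in either direction. SCUBE2 had 0.09 ± 0.14 in GFP and parental (adjusted p = 0.875) and −0.21 ± 0.12 in the FGFR2 lines (adjusted p = 0.425). C1orf64 had 0.12 ± 0.11 (adjusted p = 0.756) and 0.10 ± 0.09 (adjusted p = 0.667). Of 22 tested receptor targets, 13 were lower in GFP and parental and 15 in the FGFR2 lines, beside 2.06% and 2.77% of all genes, and 0 higher in either.

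**Figure D4:**
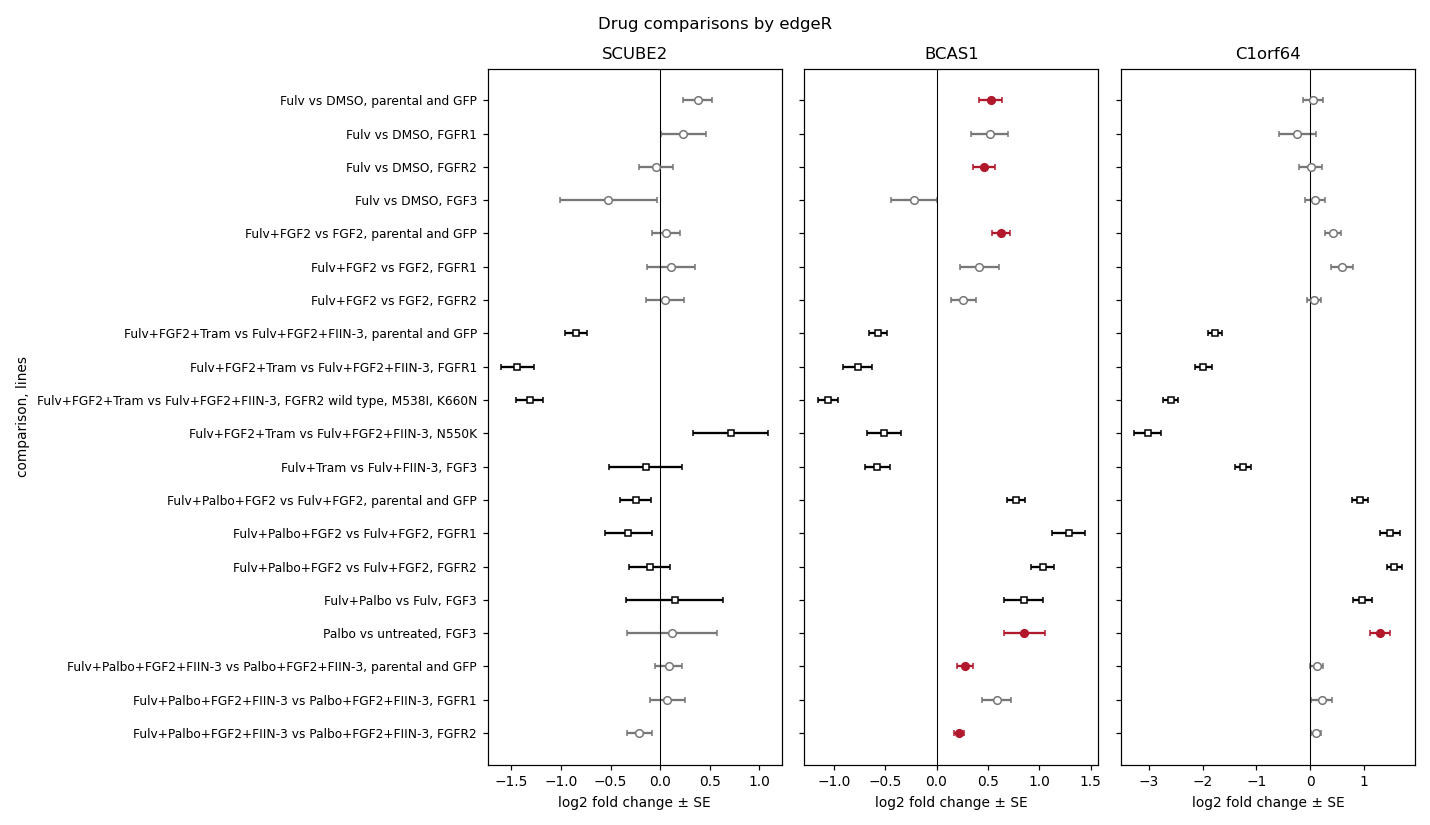
Log2 fold changes with SE of SCUBE2, BCAS1 and C1orf64 in 20 comparisons, first-named arm over second. Round points are the 11 tested comparisons, filled red where called higher at an adjusted p of 0.05 and open grey where not called, and open black squares are the 9 given as a description. BCAS1 and C1orf64 squares sit right of 0 with palbociclib and left of 0 with trametinib against FIIN-3, where C1orf64 reaches −3.02.

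Per length, SCUBE2 had the lowest and C1orf64 the highest median of the 3 genes with DMSO in GFP and parental. In parental SCUBE2 (6.48 to 10.8 TPM) lay wholly below C1orf64 (11.8 to 27.9 TPM). In the GFP line at DMSO the medians of deposited TPM were 10.8 for SCUBE2, 11.8 for BCAS1 and 15.9 for C1orf64, and in the parental line 7.90, 12 and 19.3. Over the 64 groups of set 1, the SCUBE2 group mean on the log2(CPM + 1) scale ran between 5.44 ± 0.35 (SD) in GFP with fulvestrant and 1.21 ± 0.29 in N550K with fulvestrant and FGF2. That of BCAS1 ran between 7.03 ± 0.07 in N550K with fulvestrant and FIIN-3 and 3.27 ± 0.22 in M538I with FGF2, and that of C1orf64 between 6.43 ± 0.36 in FGF3 with fulvestrant and palbociclib and 2.81 ± 0.26 in M538I with fulvestrant, FGF2 and trametinib. In set 2 the ends were 6.52 ± 0.19 (wild-type FGFR2) and 2.20 ± 0.88 (FGF3, palbociclib) for SCUBE2, 6.95 ± 0.20 (K660N) and 4.16 ± 0.76 (M538I, palbociclib and FGF2) for BCAS1, and 5.92 ± 0.21 and 3.01 ± 0.21 for C1orf64. Both C1orf64 ends were N550K on fulvestrant, palbociclib and FGF2, the high one with FIIN-3 and the low one with trametinib. Neighbouring groups in these orders overlapped in all 63 pairs of set 1 and all 47 of set 2, for each gene.

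Across group means the 3 genes were loosely alike. Pearson's r over the 64 groups of set 1 was 0.66 between BCAS1 and C1orf64, 0.473 between SCUBE2 and BCAS1 and 0.148 between SCUBE2 and C1orf64. Over the 48 groups of set 2 it was 0.343, 0.331 and −0.0665. Groups share lines and treatments, so these values only describe the tables, and the pair of SCUBE2 and C1orf64 was near 0 in both sets.

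**Figure D5:**
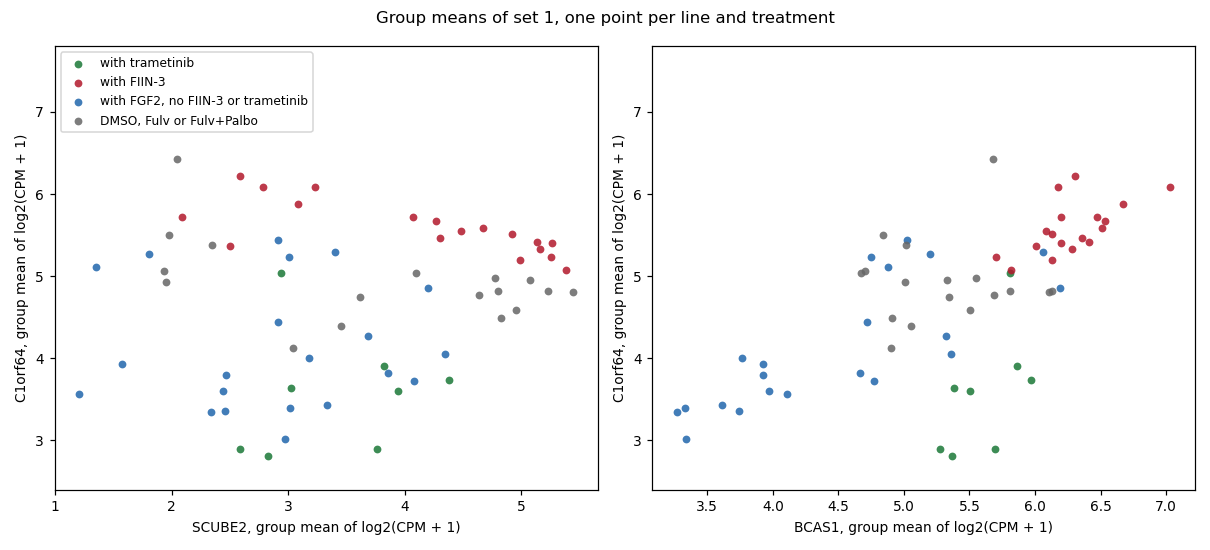
Group means of C1orf64 against SCUBE2 and against BCAS1 in the 64 set 1 groups, on log2(CPM + 1) axes. Colours mark groups with trametinib, with FIIN-3, with FGF2 but neither inhibitor, and with none of these. Trametinib groups given FGF2 lie low for C1orf64 while BCAS1 is at intermediate levels, and r is 0.148 with SCUBE2 and 0.66 with BCAS1.

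Among 8607 genes with a mean of at least 3 on the log2 scale, the ones most like SCUBE2 over the set 1 groups were SATB1, a chromatin organiser (r = 0.919), C9orf3, an aminopeptidase (0.904), LRIG1, a membrane protein that holds back receptor tyrosine kinases (0.897), TENM3, a teneurin (0.895), and SERPINA1, alpha-1 antitrypsin (0.889). Over set 2 their r was 0.926, 0.917, 0.904, 0.883 and 0.841. The nearest to BCAS1 were ARHGEF37 (0.929 in set 1 and 0.887 in set 2), the Rag GTPase RRAGB (0.923 and 0.795), PIK3IP1, an inhibitor of PI3 kinase (0.922 and 0.718), the ETS factor ELF5 (0.915 and 0.828) and the autophagy gene GABARAPL1 (0.893 and 0.831). The nearest to C1orf64 were FEZ1 (0.929 and 0.777), C2orf72 (0.906 and 0.854), DHRS1 (0.891 and 0.73), the transporter ABCC6 (0.883 and 0.635) and ECHDC2 (0.883 and 0.674). None of the 3 genes was among the 5 nearest of another. The median r over all genes was 0.024 for SCUBE2, −0.0739 for BCAS1 and −0.108 for C1orf64.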

How the data were processed

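The authors deposited 2 tables: read counts for 54592 genes in 647 libraries, and log2(TPM + 1) values, of which 133 columns were used here and 514 were not. The submitters' processing notes name STAR and hg19; their versions, the counting program and the annotation are not given in the sources used here. Title numbers start again at 1 partway through the series, and the libraries before and after were kept as separate sets.

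The 3 genes, the gene lists and the split of N550K from the other FGFR2 lines were chosen with earlier results of these data known. Genes named beside the 3 are up to 3 called members of a list with the greatest absolute change, the overexpressed genes and DUSP6, and the 5 genes most like each of the 3. Results on 2 listed genes are not reported here.

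Each of 20 comparisons and 2 interactions (11 and 1 of them tested for the 3 genes, 9 and 1 given as a description) was fitted on its own libraries with edgeR 4.0.16 in R 4.3.3 (filterByExpr at a minimum count of 10, TMM factors, line as an additive term, quasi-likelihood test), with Benjamini-Hochberg adjustment over all genes tested and a threshold of 0.05. On simulated counts for fulvestrant against DMSO in GFP and parental (13300 genes), 94.5% of genes changed by 1 on the log2 scale and 100% of those changed by 2 were recovered. The simulation gave every gene the same dispersion and no line effect, and changed only well counted genes. It therefore checks the code and does not give the recovery in the real or smaller comparisons. Group levels are TMM-scaled CPM with a pseudocount of 1 on the log2 scale, which understates changes at low levels. Groups that do not overlap are those in which every library of the one lies beyond every library of the other. Neighbours and antisense partners came from GENCODE v29 (GRCh38, names only), which is not the build of the counts. Alternatives were DESeq2 1.42.0 size factors and Wald test, no filter on low counts, a replicate block on neighbouring title numbers (pairs that deviated together, with every correlation over 0.1, in 5 of 20 comparisons), removal of the libraries that stand apart (for counts of groups that do not overlap, chosen after seeing the data), limma 3.58.1 on the deposited log2 values, other scalings and pseudocounts for levels, and leaving out single libraries where a line had 5 or fewer in an arm.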

Additional observations from a re-analysis of the deposited data

Results flagged for a closer look

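In 25 cases, 7.44% of the pairs of gene and group, the highest or lowest library stood apart from the rest of its group by Dixon's criterion, where chance flags about 1 in 20. Of these, 7 were among the libraries with little MT-RNR2. Each value below is followed by the nearest other library of its group, in CPM.

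SCUBE2 was at 1.66 in K660N with fulvestrant, FGF2 and trametinib replicate 3 (next 7.37), a library that stands apart. It was at 0 in FGF3 with fulvestrant and FIIN-3 replicate 1 (next 4.36), where 3 counts would be 2.79 CPM. It was at 63.7 in FGFR1 with FIIN-3 and FGF2 replicate 6 (next 41.4) and at 11.5 in M538I with fulvestrant, FGF2 and FIIN-3 replicate 3 (next 17.5).

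BCAS1 was low in 2 libraries that stand apart, at 31.2 in GFP DMSO replicate 6 (next 44.6) and at 22.7 in wild-type FGFR2 with fulvestrant replicate 3 (next 47.6). In set 1 it was also low at 52.3 in parental with FIIN-3 and FGF2 replicate 2 (67.5), at 5.56 in wild-type FGFR2 with FGF2 replicate 4 (9.08), at 3.32 in M538I with fulvestrant and FGF2 replicate 5 (13.7) and at 117.4 in N550K with fulvestrant and FIIN-3 replicate 4 (130). It was high at 79.8 in parental with fulvestrant, palbociclib and FGF2 replicate 6 (65), at 38.7 in N550K with the same agents replicate 3 (28.6) and at 38.6 in FGF3 with fulvestrant replicate 1 (25.1). In set 2, BCAS1 was at 67.7 in wild-type FGFR2 with FIIN-3 replicate 6 (55.3), and at 47.1 in M538I with palbociclib replicate 1 (58.3) and 57.5 with FIIN-3 replicate 1 (72.4).

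C1orf64 was high in 4 libraries that stand apart, at 59.6 in GFP DMSO replicate 6 (23.8), at 82.7 in wild-type FGFR2 with fulvestrant replicate 3 (30), at 84.3 in N550K with fulvestrant replicate 3 (27) and at 102.1 in set 2 parental with palbociclib replicate 4 (20.7). It was also high at 70.5 in parental with FIIN-3 and FGF2 replicate 2 (45.7), the library in which BCAS1 was low, at 89.9 in N550K with FIIN-3 replicate 2 (55.2) and at 11.4 in set 2 wild-type FGFR2 with fulvestrant, palbociclib, FGF2 and trametinib replicate 6 (7.65). It was low at 23.8 in parental with fulvestrant replicate 2 (27.2) and at 25.1 in wild-type FGFR2 with fulvestrant, FGF2 and FIIN-3 replicate 6 (39.5).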

How the results depend on the processing

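Of 489 values of the 66 fitted results under alternatives, those given as a description included, 463 kept their direction and side of the threshold. Their 29 calls were shared in full by DESeq2 size factors (29), by the DESeq2 Wald test (30) and by the replicate block (30), and 28 were shared without the low-count filter. The 36 tested results held 7 of these calls. The other calls are of fits whose arms stand in the contrasts that chose the genes, so nothing is read from their being shared. The SCUBE2 interaction of N550K stayed at 2.00 to 2.05. Title numbers paired the samples in every line in 5 of 20 comparisons (both fulvestrant comparisons and the set 2 one in FGFR1, fulvestrant with FGF2 in the FGFR2 lines, and trametinib against FIIN-3 in FGF3) and in 3 of 4 FGFR2 lines with fulvestrant against DMSO (correlations over all comparisons −0.431 to 0.837, median 0.218). The block changed no call of the 3 genes in those. It added the call of C1orf64 with fulvestrant on FGF2 in GFP and parental, where 1 of 2 lines was paired (0.43, adjusted p = 0.0316). With limma on log2 TPM, BCAS1 with fulvestrant lost its call in GFP and parental (0.54, adjusted p = 0.151) and in the FGFR2 lines (0.55, adjusted p = 0.0734). Without the filter BCAS1 lost its call with trametinib against FIIN-3 in N550K (−0.47), a fit given as a description. The DESeq2 Wald test called BCAS1 with fulvestrant in FGFR1 in set 2 (0.57). Without the libraries that stand apart, C1orf64 with fulvestrant was called in the FGFR2 lines (0.35).

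Sign changes were found in values that were not called. C1orf64 in FGFR1 was 0.18 without those libraries and 0.084 with limma, and in the FGFR2 lines −0.021 with DESeq2 size factors and −0.020 with its Wald test. SCUBE2 in the FGFR2 lines was 0.10 with limma. The fulvestrant interaction was 0.011 with limma for BCAS1, and 0.10 without those libraries and 0.066 with limma for C1orf64. Leaving out single libraries gave −0.46 to 0.18 for C1orf64 in FGFR1, −0.056 to 0.017 for SCUBE2 and −0.022 to 0.086 for C1orf64 in the FGFR2 lines, −0.066 to 0.050 for the C1orf64 interaction, −0.056 to 0.38 for SCUBE2 with palbociclib in FGF3, and 0.26 to 0.31 for BCAS1 with fulvestrant in set 2 GFP and parental. The median BCAS1 difference of lines from GFP was −0.27 on log2 TPM, against −0.59. The cause of these changes was not tested. Limma was not run on comparisons whose TPM columns were not used. Low SCUBE2 counts in N550K and FGF3 limit its precision there.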
